A study of Mus musculus with 6 samples.

Results

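The cytosolic ribosomal protein genes were the 68 genes, of 19505 with a symbol on the array, whose symbol begins with Rpl, Rps or Rplp and a digit, or is Rpsa. Symbols beginning with Rps6k (6) and that of a pseudogene (1) were left out, and each of the 68 genes had a single probe set. Of these genes, 41 carried a large-subunit and 27 a small-subunit symbol. By role, 55 encode canonical ribosomal proteins (33 large, 22 small, of 77 listed), 7 are paralogs (Rpl3l, Rpl10l, Rpl22l1, Rpl36al, Rpl39l, Rps4l, Rps27l), 4 are retrogenes (Rpl32l, Rpl37rt, Rps23rg1, Rps27rt), and 2 (Rpl7l1, Rps19bp1) name no structural protein of the ribosome. RNA came from submandibular glands of female BALB/c mice that had either sham surgery (Cont, 3 arrays) or removal of both ovaries (OVX, 3 arrays). Mice in both groups were operated on at 6 weeks of age and sampled 8 weeks later, at 14 weeks. The labels call the arrays of a group biological replicates. The deposited values are log2 array intensities, and every change below is the OVX mean minus the Cont mean on that scale.

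A ribosome pairs a small subunit, which reads the mRNA, with a large subunit, which joins amino acids. Each holds ribosomal RNA and a fixed set of proteins, most of them needed in equal number. The mRNAs of these proteins are abundant in most tissues, and most begin with a run of pyrimidines, the TOP tract, through which the kinase mTORC1 and the protein Larp1 control their translation. The tract acts on translation and mRNA stability, and array values measure mRNA only.

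Because the tract defines these mRNAs as a class, the start sites were read from RefSeq (GRCm38.p6), which held a window for 55 of the 68 genes. Each line below runs from 20 bases before the annotated start to 30 bases from it, on the strand of the gene. The capitals mark the longest pyrimidine run inside the stretch from 10 bases before to 50 bases after the start. A run that crosses an end of this stretch is cut there, as in Rps16 and Rps27l, whose runs begin before it. Rps9 (chr7:3704021-3704070, plus strand), Rps6 (chr4:86857338-86857387, minus strand) and Rps15a (chr7:118116118-118116167, minus strand) are shown as canonical genes that fell in OVX and have a run at the start:
Rps9: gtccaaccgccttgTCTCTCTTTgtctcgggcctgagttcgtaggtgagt
Rps6: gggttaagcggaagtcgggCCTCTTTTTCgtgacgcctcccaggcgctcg
Rps15a: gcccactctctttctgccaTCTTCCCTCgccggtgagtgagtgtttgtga
Rps16 (chr7:28350669-28350718, plus strand) and Rpl5 (chr5:107900508-107900557, plus strand) had the largest falls of their subunits, and neither has a run of 8 or more inside that stretch. The longest in Rpl5 (7 bases) begins past the printed bases, so none is in capitals. It reaches the last base of the stretch, so its full length is not known:
Rps16: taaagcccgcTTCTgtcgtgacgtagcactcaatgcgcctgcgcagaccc
Rpl5: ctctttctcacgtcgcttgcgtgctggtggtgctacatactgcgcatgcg
Rpl39l (chr16:10170208-10170257, plus strand), Rps27l (chr9:66946066-66946115, plus strand) and Rpl10l (chr12:66284372-66284421, minus strand) are shown as paralogs:
Rpl39l: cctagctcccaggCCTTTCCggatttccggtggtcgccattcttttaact
Rps27l: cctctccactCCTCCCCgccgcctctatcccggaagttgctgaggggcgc
Rpl10l: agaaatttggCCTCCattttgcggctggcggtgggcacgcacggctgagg
A run of at least 8 pyrimidines inside that stretch was found in 72.1% of the 43 canonical genes with a window (31 genes). It was found in 41.7% of the 12 other genes (5 genes), and in 24.0% of all 27025 genes with a window. The annotated start need not be the one used in this gland, and a run cut at an end of the stretch can count as missing. A missing run thus says only that these letters are not in the stretch. A run that is found need not lie at the start either. It began before the start in Rps9, Rps6 and Rps15a, but at base 40 in Rps19, 39 in Rps24 and 41 in Rpl41. The shares are thus not counts of TOP tracts.

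The canonical ribosomal protein mRNAs were lower in OVX glands. All 55 had a change below 0, from -0.95 for Rps16 to -0.25 for Rpl10a, with a median of -0.50, which is 70.8% of the Cont level. In 53 of them every OVX array lay below every Cont array, and Rpl28 and Rpl36 were the exceptions. Over all 68 genes the median was -0.47 (quartiles -0.57 and -0.35), against -0.02 over all genes and 0.03 over the brightest 4877 genes by mean level.

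At an adjusted p under 0.05 (limma, Benjamini-Hochberg over all named probe sets), 17 of the 68 fell and 0 rose, where 1.07% of all genes fell and 2.57% rose. The 17 are all canonical. At an unadjusted p under 0.05 the count was 54 lower and 0 higher, where 7.59% of all genes were lower. By the study's criterion, a 1.5-fold change with an unadjusted p no higher than 0.05, 15 were lower, where 1.71% of all genes were. OVX arrays lay below all Cont arrays in 56 of the 68, where 10.6% of all genes had this order, and the change was below 0 in 67 of the 68, where 53.1% of all genes were below 0. Most of these genes are bright, and among those 4877 brightest genes 2.11% fell at the adjusted p and 13.7% had every OVX array below every Cont array. The number of arrays limits the precision, with standard errors from 0.13 to 0.21 for the 68 genes.

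The count of 17 depends on single arrays. It was 2 without Cont 2 or without OVX 1, 3 without OVX 3, 7 without Cont 1 or without OVX 2, and 8 without Cont 3, where 85 to 151 of all genes fell instead of 208, while the median change of the 68 stayed between -0.52 and -0.43. Rps16 and Rps9 passed in all 6 of these fits, and 5 of the 17 (Rpl31, Rpl32, Rpl37a, Rps3a1, Rps4x) passed in 0. After the methods' t-test with Benjamini-Hochberg adjustment, 1 of the 68 was lower, where 16 of all genes were.

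**Figure D1:**
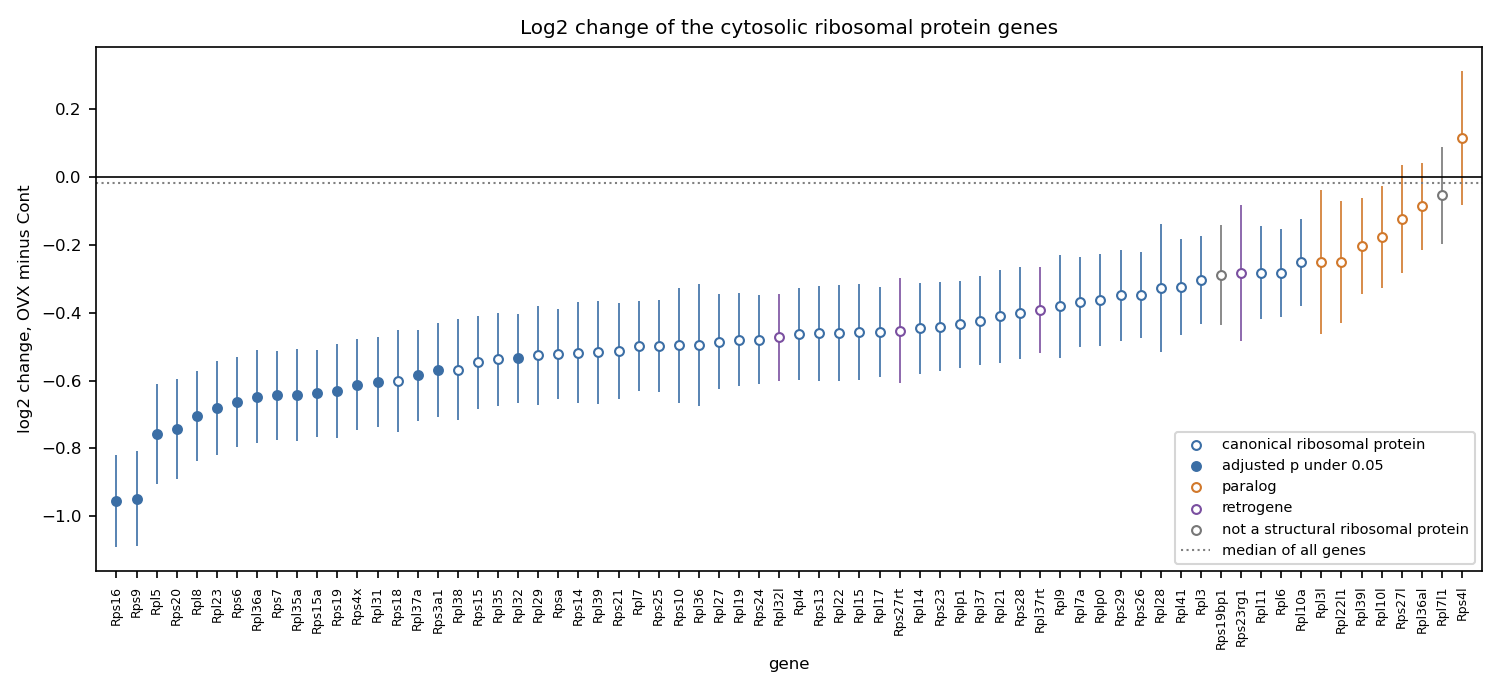
Log2 change (OVX minus Cont, vertical axis) of each of the 68 genes in order of change, with its standard error, by class, where filled points have an adjusted p under 0.05 and the dotted line is the median of all genes at -0.02. The 17 filled points are all canonical genes, and Rps4l is the 1 gene above 0.

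In the small subunit, Rps16 and Rps9 had the largest falls of the whole set. Rps16, a protein of the subunit's head whose tail reaches the decoding site, measured 9.53, 9.69 and 9.65 in Cont 1 to 3 and 8.52, 8.78 and 8.70 in OVX 1 to 3. The groups were separated by more than their spread, with a change of -0.95 (SE 0.136, adjusted p = 0.00239 by limma), or 51.6% of the Cont level. Rps9, which lies in the body near the mRNA entry, measured 8.73, 8.99 and 8.86 in Cont and 7.77, 7.98 and 7.98 in OVX. Its change was -0.95 (SE 0.14, limma adjusted p = 0.00286), again with no overlap. Together with Rps20 of the head, these were the small-subunit genes with the largest falls. Rps20 measured 8.88, 8.88 and 9.02 in Cont and 8.13, 8.41 and 8.01 in OVX, a change of -0.74 (limma adjusted p = 0.0170).

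Rps6, the protein that S6 kinases phosphorylate downstream of mTORC1, measured 10.44, 10.68 and 10.52 in Cont and 9.89, 9.85 and 9.90 in OVX. The OVX arrays were close to each other and all below Cont, with a change of -0.66 (SE 0.132, limma adjusted p = 0.0177). Rps7, which acts in processing of the precursor of the small-subunit RNA, measured 10.48, 10.56 and 10.53 in Cont and 9.85, 9.99 and 9.80 in OVX. It had a change of -0.64 (limma adjusted p = 0.0197). Rps4x, encoded on the X chromosome, measured 9.58, 9.47 and 9.63 in Cont and 9.06, 8.94 and 8.85 in OVX, and had a change of -0.61 (limma adjusted p = 0.0291). The groups did not overlap for any of these 3 genes.

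By position, 3 of the 9 measured proteins of the head fell (33.3%, median -0.55), and 6 of the 13 of the body and platform did (46.2%, median -0.52). Of all canonical small-subunit genes 40.9% fell. Rps15a, Rps19 and Rps3a1 were the other small-subunit genes that fell, with changes of -0.64, -0.63 and -0.57. These 3 are named after their values were seen. Rps18, Rps15 and Rpsa missed the threshold narrowly, with limma adjusted p-values of 0.0555, 0.0551 and 0.0584. All 22 canonical small-subunit genes had OVX arrays below all Cont arrays, and 9 of them fell.

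In the large subunit, Rpl5 and Rpl11 bind the 5S ribosomal RNA as a particle that is also known to bind Mdm2, the regulator of p53, when ribosome assembly is disturbed. Rpl5 measured 10.32, 10.46 and 10.52 in Cont and 9.63, 9.89 and 9.50 in OVX. Its change of -0.76 (SE 0.147, limma adjusted p = 0.0160) was the largest of the large subunit. Rpl11 measured 10.05, 10.14 and 10.04 in Cont and 9.63, 9.94 and 9.81 in OVX. Its arrays did not overlap either, but the change of -0.28 (SE 0.138) did not pass the threshold (limma adjusted p = 0.355). Whether the changes of Rpl5 and Rpl11 differ was not tested.

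Rpl8, next to the peptidyl transferase centre, measured 9.73, 9.92 and 9.71 in Cont and 9.12, 9.005 and 9.11 in OVX, and fell by 0.71 (limma adjusted p = 0.0134). Rpl23, on the face that meets the small subunit, measured 10.65, 10.93 and 10.71 in Cont and 10.13, 10.01 and 10.12 in OVX, and fell by 0.68 (limma adjusted p = 0.0192). In both genes Cont 2 was the highest array, and the groups did not overlap. Rpl36a measured 8.55, 8.77 and 8.51 in Cont and 7.91, 7.92 and 8.06 in OVX and fell by 0.65 (limma adjusted p = 0.0244). Rpl35a measured 7.76, 7.76 and 7.61 in Cont and 6.99, 7.21 and 6.996 in OVX and fell by 0.64 (limma adjusted p = 0.0245). Rpl32, often used as a reference gene in quantitative PCR, measured 9.99, 10.12 and 9.97 in Cont and 9.44, 9.58 and 9.45 in OVX. It fell by 0.53 (limma adjusted p = 0.0496).

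The proteins around the exit of the polypeptide tunnel had changes in a narrow range. All 7 measured had changes between -0.61 and -0.46, with a median of -0.52, and 1 (Rpl31) fell at the adjusted p. The P stalk, which recruits the elongation factors, was measured by Rplp0 and Rplp1. Rplp0 had a change of -0.36 (SE 0.135, limma adjusted p = 0.204) and Rplp1 of -0.43 (SE 0.129, limma adjusted p = 0.104), and in both every OVX array lay below every Cont array. The smallest changes of canonical genes, named after their values were seen, were those of Rpl10a (-0.25), Rpl6 (-0.28), Rpl11 (-0.28) and Rpl3 (-0.30), all of the large subunit. Rpl28 had the widest spread of the canonical Cont arrays, at 10.29, 10.68 and 9.96, and its groups overlapped. Of the 33 canonical large-subunit genes, 31 had no overlap and 8 fell. Genes whose loss of 1 copy causes Diamond-Blackfan anaemia in human were represented by 13 members, with a median of -0.49. Of these 5 fell (38.5%), Rpl5 and Rps7 with the smallest p-values. This is near the canonical genes as a whole, of which 30.9% fell, with a median of -0.50.

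The canonical small-subunit genes had a median change of -0.53 and the large-subunit genes of -0.46. In each array the mean of the small-subunit genes was set against the mean of the large-subunit genes, and this difference was -0.279 ± 0.0119 in Cont and -0.375 ± 0.0239 in OVX (SD, n = 3). All OVX arrays were below all Cont arrays for it. The gap between the groups, -0.0958 on the log2 scale, is smaller than the median change of either subunit. No test is given for it, because the genes were chosen with results of these data known.

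**Figure D2:**
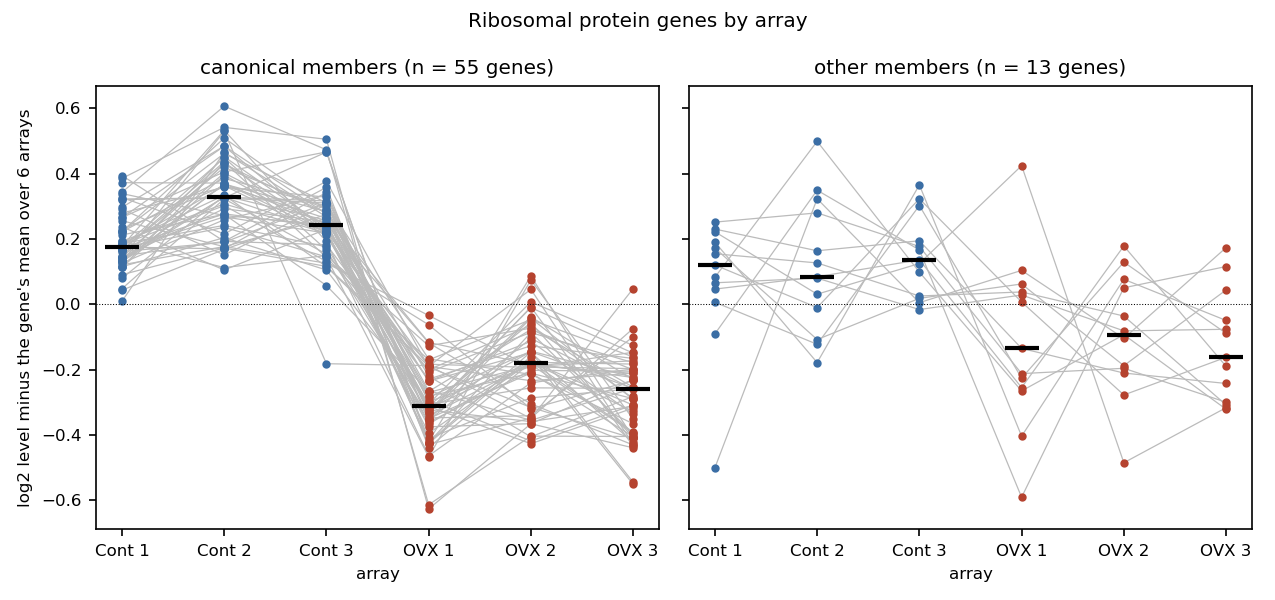
Log2 level of each gene minus its own mean over the 6 arrays (vertical axis), by array, for the 55 canonical genes and the 13 other genes, where lines join the values of a gene and black bars are medians. The canonical genes lie above 0 in all Cont arrays except for Rpl28 in Cont 3, while in 10 of the 13 others the groups overlap.

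The arrays of a group also differed. Among the Cont arrays, Cont 2 was the highest for 46 of the 68 genes, and among the OVX arrays, OVX 2 was the highest for 40. The median distance of the 68 genes from their group means reached 0.063 in Cont 2 and 0.067 in OVX 2, where the median over all genes was within 0.006 of 0 in every array. The 17 calls rest on the same 6 arrays.

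The paralogs had a median change of -0.18, or 88.4% of the Cont level, against -0.50 for the canonical genes. It was -0.11 without OVX 1 or without OVX 3. In 0 of the 7 did the arrays separate, and 0 passed even at an unadjusted p under 0.05. Rpl36al, a close copy of Rpl36a, measured 7.76, 7.77 and 7.67 in Cont and 7.72, 7.61 and 7.61 in OVX, a change of -0.09 (SE 0.128, limma adjusted p = 0.802). Rps27l, known as a target of p53, measured 7.37, 7.24 and 7.67 in Cont and 7.14, 7.49 and 7.27 in OVX, and its groups overlapped. Rps4l was the 1 gene with a change above 0, at 0.12 (SE 0.197, limma adjusted p = 0.834). It measured 4.69, 5.51 and 5.19 in Cont and 5.29, 5.08 and 5.36 in OVX, and its sign turned without Cont 1, to -0.11, and with arrays centred on 11 housekeeping reference genes, to -0.16.

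Rpl3l, known for its expression in striated muscle, measured 4.22, 4.03 and 4.13 in Cont and 4.43, 3.52 and 3.68 in OVX. The OVX arrays lay on either side of Cont. The testis genes Rpl10l and Rpl39l had changes of -0.18 (SE 0.15) and -0.20 (SE 0.142). Rpl22l1, a paralog that Rpl22 is known to repress in mouse, had a change of -0.25 (SE 0.18). The table holds no detection calls, so nothing in it separates a low signal from no transcript, and a change measured near background can be understated. The 5 members with a mean level under 6 had a median change of -0.25 and the 9 between 6 and 8 of -0.25. It was -0.51 for the 16 between 8 and 9, -0.52 for the 19 between 9 and 10, and -0.46 for the 19 above 10. Of the 14 dimmer genes, 2 (Rpl35a and Rps19) fell, and Rpl27, a canonical gene with levels of 5.46, 5.75 and 5.57 in Cont and 4.98, 5.17 and 5.17 in OVX, had a change of -0.49. Rpl36, the other canonical gene among them, also had -0.49. Most of the 14 are outside the canonical list, so level and class cannot be told apart in this split. The Spearman correlation of mean level and change was -0.20 over the 68 genes and 0.29 over the 55 canonical genes, where dimmer genes fell more.

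The genes classed as retrogenes are intronless copies of ribosomal protein mRNAs. The classes came from lists, and whether paralogs such as Rpl36al arose in the same way was not examined. Rpl32l, Rps27rt and Rpl37rt had changes of -0.47, -0.45 and -0.39, each with every OVX array below every Cont array and with limma adjusted p-values of 0.074, 0.168 and 0.142. Rps23rg1 had a change of -0.28 (SE 0.2), and its groups overlapped. Probes of a retrogene, or of a paralog of close sequence, can bind the parent's transcript, and the 2 cannot be told apart in these values.

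Of the 13 other genes, 9 could be set beside a measured canonical relative, as its change minus that of the canonical gene in the same arrays (5 paralogs, 3 retrogenes and Rpl7l1). The difference was above 0 in all 9, and in 3 all OVX arrays lay above all Cont arrays: Rps4l against Rps4x (0.73, SE 0.293), Rpl36al against Rpl36a (0.56, SE 0.0954) and Rpl7l1 against Rpl7 (0.44, SE 0.122). For each of these the two-sided exact permutation p was 0.1, the smallest that 3 against 3 arrays can give, and 0.3 after adjustment over the 9 pairs. The others were Rpl39l against Rpl39 (0.31), Rpl22l1 against Rpl22 (0.21), Rps23rg1 against Rps23 (0.16), Rpl32l against Rpl32 (0.06), Rpl3l against Rpl3 (0.05) and Rpl37rt against Rpl37 (0.03), with exact permutation p-values from 0.2 to 0.9. With this number of arrays no pair could reach 0.05, so these p-values neither show nor exclude a difference for a single pair, and the sizes and standard errors stand as the description. Rpl7l1, a nucleolar protein of ribosome assembly, itself had a change of -0.05 (SE 0.143), with levels of 7.64, 7.36 and 7.48 in Cont and 7.53, 7.28 and 7.51 in OVX. Rps19bp1, which binds Rps19, had a change of -0.29 (SE 0.147, limma adjusted p = 0.38).

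**Figure D3:**
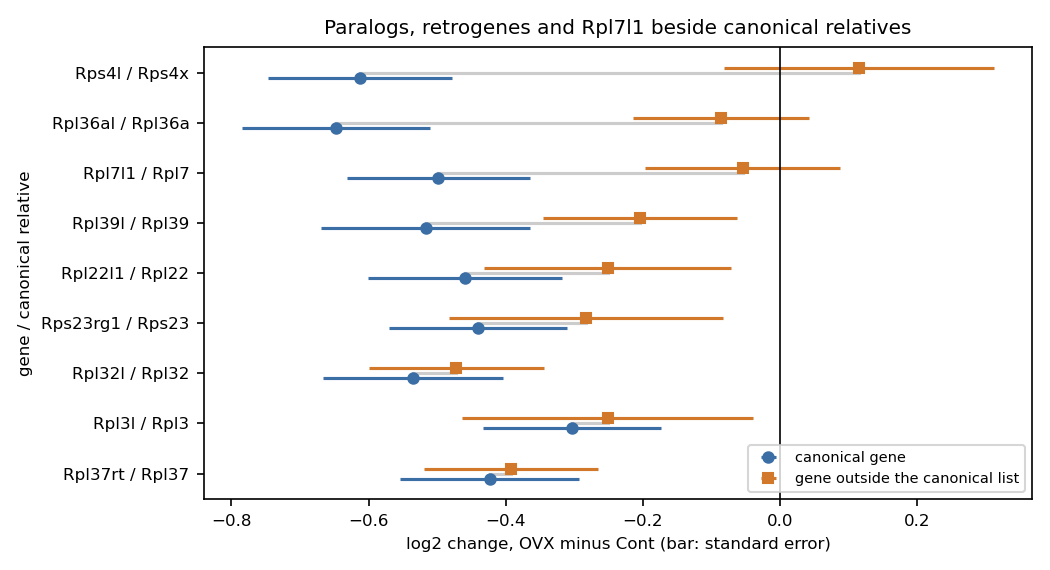
Log2 change (OVX minus Cont, horizontal axis) of 9 genes outside the canonical list (squares; 5 paralogs, 3 retrogenes and Rpl7l1, which is neither) and of their canonical relatives (circles), with standard errors. The square lies to the right of the circle in all 9 pairs, by 0.73 for Rps4l and by 0.03 for Rpl37rt.

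Of 15 measured genes whose mRNAs share the TOP tract without encoding ribosomal proteins, 1 fell, Npm1, a nucleolar chaperone of ribosome assembly. In 12 of them OVX arrays lay below all Cont arrays, where 10.6% of all genes and 13.7% of the 4877 brightest had this order. The median change of the 15 was -0.37. Npm1 measured 9.23, 9.28 and 9.21 in Cont and 8.62, 8.63 and 8.66 in OVX (change -0.60, SE 0.126, limma adjusted p = 0.0224). Fau, which encodes a small-subunit protein fused to a ubiquitin-like domain and has a symbol outside the rule, had a change of -0.39 (limma adjusted p = 0.268). Vim, the 1 gene of the TOP list above 0, had a change of 0.25 (limma adjusted p = 0.414), with all OVX arrays above all Cont arrays, and of -0.03 when the arrays were centred on the reference genes. The elongation factors numbered 11, all with a change below 0 and 0 past the adjusted p (5 at an unadjusted p under 0.05), and their median was -0.20. Eef1b2 and Eef1d, which recharge the factor that carries aminoacyl-tRNA, had changes of -0.50 and -0.41 (limma adjusted p = 0.0893 and 0.14).

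The list of initiation factors and related genes had a median of -0.14 over 41 genes, and 1 fell, Pabpc4, a poly(A)-binding protein (change -0.68, limma adjusted p = 0.0348). Eif3f, a subunit of the factor that places the small subunit on mRNA, had a change of -0.49 (limma adjusted p = 0.0734). Of 64 genes of ribosome biogenesis 2 fell, Npm1 and Nhp2 (change of Nhp2 -0.62, limma adjusted p = 0.0305), and the median was -0.15. Mitochondrial ribosomal proteins, which build a separate ribosome, had a median of -0.06 over 76 genes, with 0 past the adjusted p of limma. At an unadjusted p under 0.05, 7 of the 76 were lower, where 7.59% of all genes were. Counts at the adjusted p in these lists are read beside the 1.07% of all genes that fell, and the lists overlap.

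**Figure D4:**
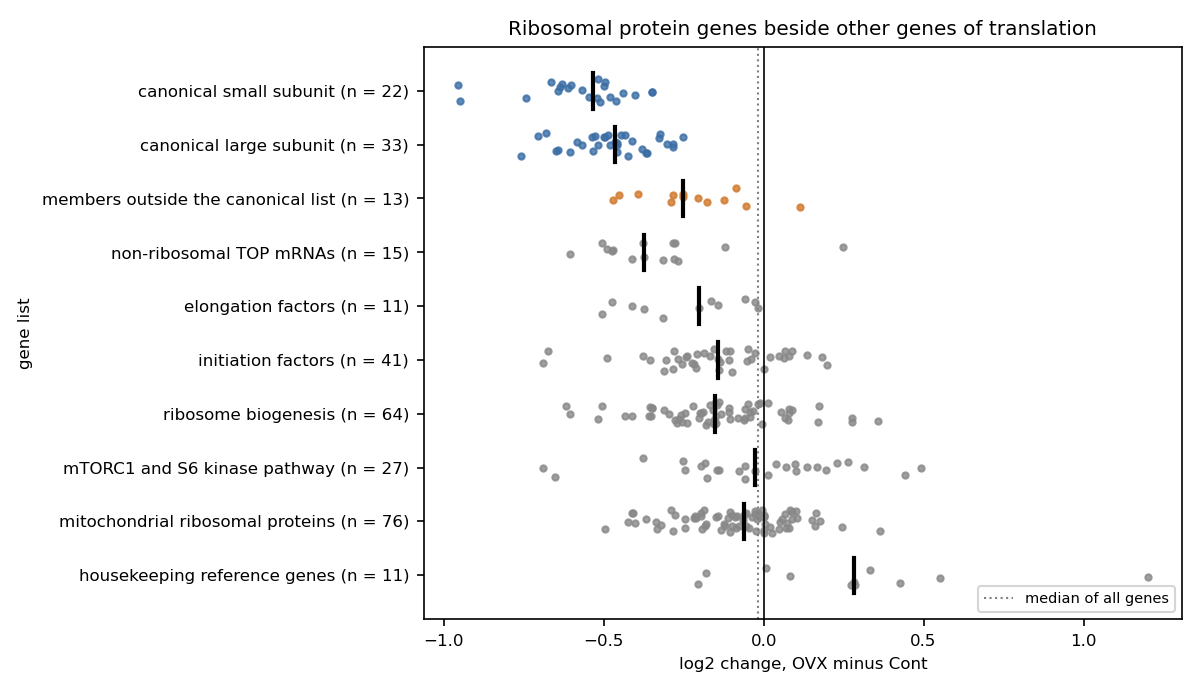
Log2 change (OVX minus Cont, horizontal axis) of each gene in the canonical subunits, the 13 other genes, and lists of translation genes and reference genes, where black bars are medians and points are spread vertically for sight. The medians run from -0.53 for the small subunit to -0.06 for mitochondrial ribosomal proteins, -0.03 for the mTORC1 and S6 kinase list and 0.28 for the reference genes.

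Other gene lists in these glands also differed between the groups. In whole-gland RNA, fewer cells of a type and less RNA per cell cannot be told apart. Of 16 markers of acinar cells, which make most of the saliva, 6 fell and 0 rose, with a median of -0.45, and their summed level (log2 of the summed linear values) was 14.9 in all Cont arrays and 14.6 to 14.7 in OVX. The defining markers Aqp5, Bhlha15 and Slc12a2 had changes of -0.46, -0.45 and -0.31 without passing the threshold (limma adjusted p = 0.149, 0.278 and 0.296), with array values of Aqp5 from 8.65 to 9.41. Of the 16 acinar markers, 14 were below 0 and 2 above. Those above were Ano1 (0.28, limma adjusted p = 0.334), with all OVX arrays above all Cont arrays, and Xbp1 (0.03). Pip and Prol1 had changes of -0.09 and -0.07. Of 13 markers of the granular convoluted tubule 12 rose, and their summed level was 14.3 to 14.9 in Cont and 16.1 in OVX. Of 11 housekeeping genes in common use as references, 0 passed at the adjusted p of limma and 4 were higher at an unadjusted p under 0.05, where 8.24% of all genes were higher, and their median change was 0.28. Of 13 myoepithelial and smooth muscle markers 8 rose (median 0.77, summed level 10.01 to 10.2 in Cont and 11.5 to 11.7 in OVX), of 17 markers of other ducts 6 rose (median 0.46, 12.2 to 12.4 and 12.7 to 12.8), and of 11 fibroblast markers 4 rose (median 0.25, 10.8 to 10.9 and 11.3 to 11.4). All 7 adipocyte markers were below 0, with a median of -0.40, and 0 passed at the adjusted p of limma. At an unadjusted p under 0.05, 3 of the 7 were lower, where 7.59% of all genes were. The summed level of the adipocyte markers was 8.36 to 9.09 in Cont and 7.62 to 8.22 in OVX. The part of these shifts in the ribosomal protein values was not tested. The arrays were normalized together, so each change is relative to the rest of the RNA on the array.

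Promoter letters were searched on both strands from 250 bases before to 50 after each start. The ETS-type letters CCGGAAG were in 44.2% of the 43 canonical genes and in 9.93% of all genes with a window, the GC box GGGCGG in 58.1% and 38.2%, the letters CTCGCGAG in 9.3% and 1.04%, the YY1-type letters AAGATGGC in 6.98% and 3.19%, the E-box CACGTG in 9.3% and 8.09%, and TATAAA in 11.6% and 15.7%. None of these contains another, although the ETS-type and YY1-type letters can overlap by the bases they share at their ends. Among genes on the array with a window the ETS-type share was 13.2% and that of the GC box 51.2%. Canonical genes with a run of at least 8 anywhere inside the stretch around the start had a median of -0.50 (31 genes, 9 of which fell). Those without had a median of -0.51 (12 genes, 5 of which fell). Genes with and without the ETS-type letters had medians of -0.51 (19 genes, 4 of which fell) and -0.48 (24 genes, 10 of which fell). A match is a description of the letters, and is not evidence of a bound site.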

How the data were processed

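Total RNA of 6 glands was hybridized to Clariom S mouse arrays. The values deposited by the authors are log2 intensities of probe sets, normalized over the arrays by SST-RMA. The submitters' notes list RMA and Affymetrix Power Tools, with no version. The log2 scale was inferred from the largest value (13.06) and the array medians (5.20 to 5.22). Of 22206 probe sets, 19572 had a symbol in the platform annotation, 0 had several and 2634 had none, and the last were left out. Where a gene had more than 1 probe set (55 genes), the brightest was kept, and no filter on dim values was applied.

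limma 3.58.1 in R 4.3.3 (lmFit, eBayes, no covariate) gave the OVX minus Cont change, with Benjamini-Hochberg adjustment over all named probe sets. The methods name an independent t-test, run here as an alternative with equal variances. For the paralog pairs an exact permutation test, two-sided, was used. The fit was tested on simulated data. Alternatives were other normalizations and centrings, a filter on dim probe sets, variance options, weights for arrays, a block for the replicate number, and each array left out. The background of the 4877 brightest genes, the values by array and the separate retrogenes were added after seeing the data.

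Genes were named by a rule: the 10 largest falls past the threshold, the changes nearest 0, the largest positive changes, the largest spreads, all paralog pairs, examples of role groups, and the 2 smallest p-values of each translation list. Others are named after their values were seen. Members and lists were chosen with earlier results of these data known. Lists came from general knowledge, and RefSeq sequences were matched by symbol.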

Additional observations from a re-analysis of the deposited data

How the results depend on the processing

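The count of 17 lower genes at the adjusted p became 33 with quantile normalization, 47 with arrays centred on the reference genes, 28 without the dimmest 30% of probe sets, 44 with limma's trend and robust options, 1 with the methods' t-test and 0 with its Welch form. In the same order, 1.35%, 6.41%, 2.07%, 1.94%, 0.08% and 0% of all genes tested fell, against 1.07% in the main fit. Leaving out each array gave 2 to 8, where 0.44% to 0.77% of all genes fell. With the replicate block the count was 11, where 0.91% of all genes fell. Replicate numbers were not taken to pair the arrays, since deviations of same-numbered arrays over all named probe sets correlated by 0.067, 0.012 and -0.038. The 68 genes themselves did run in parallel by number. Their median distance from the group mean was -0.055, 0.063 and -0.004 in Cont 1 to 3, and -0.047, 0.067 and -0.019 in OVX 1 to 3. Why was not tested. The count by fold and unadjusted p, 15, became 34 with quantile normalization and 54 with centring on reference genes. The translation and biogenesis lists, with 3 lower genes, had 8, 16, 7 and 11 under quantile normalization, reference-gene centring, the dim filter and the trend options. They had 0 with the replicate block, 0 in the Welch form and 0 to 3 with arrays left out. Quantile normalization moved the median change from -0.47 to -0.58, and that of the small subunit from -0.51 to -0.60. Centring on the reference genes moved the median of all genes from -0.02 to -0.29, the 68 genes to -0.746, the large subunit to -0.735, the small subunit to -0.79 and the paralogs to -0.456. This centring shifts every gene alike, so relative to all genes the 68 stayed at -0.45, and it turned the sign of small positive changes (Rps4l -0.163, Mxd4 -0.033, Vim -0.0299) by that shift alone. With quantile normalization they stood at -0.56 relative to all genes. With arrays left out, Rps4l ran from -0.106 (without Cont 1) to 0.305 (without Cont 2), and Rpl7l1 from -0.122 (without Cont 2) to 0.026 (without OVX 2), at 0.018 without Cont 1. The paralog median ran from -0.22 to -0.11. The cause of the other moves was not tested, except that fits without an array have fewer samples. The dim filter kept 67 of the 68 genes. The count of higher members was 0 and the small-subunit median stayed below the large-subunit median under all alternatives run. Array values carry no depth, and signal near background limits the dim paralogs.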

Other observations

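Genes that control ribosomal proteins were also measured. In a list of genes of the mTORC1 pathway and of kinases with Rps6k symbols, 1 of 27 genes fell and the median change was -0.03. The gene that fell was Rps6ka6, a kinase of the RSK family, with 5.02, 5.13 and 5.43 in Cont and 4.55, 4.53 and 4.54 in OVX (change -0.65, SE 0.146, limma adjusted p = 0.032). Eif4ebp1, the mTORC1 substrate that holds back cap-dependent translation, had a change of -0.69, with 8.15, 8.48 and 7.76 in Cont and 7.39, 7.48 and 7.45 in OVX, and did not pass (limma adjusted p = 0.061). Its groups did not overlap. Array values of these genes say nothing of kinase activity.

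Among 13 transcription factors named for ribosomal protein genes, 0 passed at the adjusted p of limma, and the median was -0.14. At an unadjusted p under 0.05, 1 of the 13 was lower, where 7.59% of all genes were. Zbtb33 had a change of -0.46 (limma adjusted p = 0.253) and Mxd4, a repressor that opposes Myc, of 0.25 (limma adjusted p = 0.39), or -0.033 with arrays centred on the reference genes. Among 11 genes of ribosome quality control 0 passed, also at an unadjusted p under 0.05 (limma), and the median was -0.06. G3bp1, a stress granule protein, had a change of -0.30 (limma adjusted p = 0.36) and Zfp598, which marks collided ribosomes, of -0.29 (limma adjusted p = 0.449).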
